A study of Mus musculus with 32 samples.

Results

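A set of 10 genes for inhibitory receptors of T cells and their ligands was followed through every library of a stimulation experiment on mouse regulatory T cells (Tregs): Tigit, Cd96, Pdcd1, Cd274, Btla, Cd160, Cd200, Vsir, Lag3 and Havcr2. They were chosen by name, with earlier results of these data known, so their counts beside all genes are a description. Rows of the gene tables whose gene identifier equals a listed symbol were taken. The 10 genes were all found among the 54087 genes of each of the 32 tables. All 10 also passed the filter on low counts and were tested with 14313 genes in all. The cells were GFP-positive Tregs purified from Foxp3-IRES-GFP knock-in mice on the C57BL/6 background, 2.5 months old, in which the reporter sits behind the Foxp3 gene that defines this lineage. The 4 treated sets of cultures received, on top of coated antibodies to CD3 and CD28 and 10 ng/ml of mouse IL-2, an agonist of a receptor of the tumour necrosis factor (TNF) receptor superfamily. The agonists were TNC-sc(mu)TNF80, also named STAR2, at 12 ng/ml for TNFR2, the antibody 3H3 at 10 µg/ml for 4-1BB, TL1A at 12 ng/ml for DR3 and OX40L at 100 ng/ml for OX40. Each was given for 36 h or 18 h with 3 libraries per group, except the OX40 agonist at 18 h with 2 libraries. The controls were stimulated in the same way for 36 h or 18 h without an agonist (3 libraries each), and a further 3 libraries came from resting Tregs, for which the labels give no time point. The doses and kinds of agonist were not matched, so a difference between agonists is one between these cultures. The labels do not say whether replicates came from separate mice or cultures, or whether mice were pooled, so p-values measure the spread between these libraries, which may be technical.

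Inhibitory receptors are surface proteins that dampen signalling from the T cell receptor, in many cases by recruiting phosphatases to tyrosine motifs in their cytoplasmic tails. TIGIT and CD96 bind CD155 (Pvr) and compete for it with the activating receptor CD226. PD-1 (Pdcd1) binds PD-L1 (Cd274) and PD-L2 (Pdcd1lg2), BTLA and CD160 bind HVEM (Tnfrsf14), LAG-3 binds MHC class II, TIM-3 (Havcr2) binds galectin-9 among other ligands, and CD200 is the ligand of the receptor CD200R1. VISTA, the product of Vsir, is a B7-like protein that has been described both as a receptor and as a ligand. On Tregs several of these proteins serve as activation markers, and TIGIT in particular is known to mark Tregs with strong suppressive activity in mice.

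The genes lie on 7 chromosomes of the mm10 build (GENCODE M21 positions are given with each gene), and Tigit, Btla, Cd200 and Cd96 share chromosome 16 within 2471 kb. Since the results turn most on Tigit, Vsir and Pdcd1, which were lower with every agonist, and on Cd200, which was higher with every agonist, the 250 bases before the annotated start of these 4 genes are shown (RefSeq, GRCm38.p6, 5′ to 3′ on the gene's strand). Capitals mark GGAAA, the core of sites for NFAT factors, on either strand, so that a match on the opposite strand reads TTTCC.
Tigit, chr16:43664185-43664434, minus strand: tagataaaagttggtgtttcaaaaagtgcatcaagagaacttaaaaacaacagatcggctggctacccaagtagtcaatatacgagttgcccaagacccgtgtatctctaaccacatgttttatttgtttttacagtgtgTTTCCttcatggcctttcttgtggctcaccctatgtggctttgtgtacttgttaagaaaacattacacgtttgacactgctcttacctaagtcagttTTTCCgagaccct
Vsir, chr10:60346601-60346850, plus strand: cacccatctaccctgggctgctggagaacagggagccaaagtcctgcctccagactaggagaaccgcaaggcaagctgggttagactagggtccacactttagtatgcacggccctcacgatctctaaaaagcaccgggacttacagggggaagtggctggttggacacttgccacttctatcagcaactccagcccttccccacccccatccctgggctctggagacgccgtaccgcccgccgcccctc
Pdcd1, chr1:94052554-94052803, minus strand: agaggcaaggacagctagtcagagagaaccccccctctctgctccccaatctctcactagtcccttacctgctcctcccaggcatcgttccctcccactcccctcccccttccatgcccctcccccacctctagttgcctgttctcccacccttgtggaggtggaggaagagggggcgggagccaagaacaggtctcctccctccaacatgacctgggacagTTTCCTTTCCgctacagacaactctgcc
Cd200, chr16:45409054-45409303, minus strand: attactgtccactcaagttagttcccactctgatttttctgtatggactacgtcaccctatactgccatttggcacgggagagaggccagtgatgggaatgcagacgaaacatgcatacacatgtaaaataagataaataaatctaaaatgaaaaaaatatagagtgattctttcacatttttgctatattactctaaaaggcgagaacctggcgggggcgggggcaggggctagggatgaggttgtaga
Tigit held 2 matches, whose first bases lie 110 and 13 bases before the start, and Pdcd1 held 2 adjoining ones that begin 28 and 23 bases before it. Vsir and Cd200 held none, and 55.6% of all 32851 promoter windows in the RefSeq table held at least 1 match. Among the other members with a window, Cd96 held 4 matches, Cd274 held 1 and the second of the windows for Cd160 held 1, while Havcr2 and Btla held none. The AP-1 motif TGANTCA, found in 6.75% of all windows, occurred in Havcr2 alone among the members' windows, and the NF-kB motif (GGG, any 5 bases, then CC), found in 45.8%, occurred in the second Cd160 window alone. The interferon response element (TTTC, any 2 bases, then TTTC), found in 2.98% of windows, occurred in none of the members' windows. Both strands were searched, and overlaps between different motifs were not removed. A match describes the letters only.

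The libraries held 11880270 to 38083925 expected counts. Levels are given as counts scaled to the library size with the trimmed mean of M-values (CPM), and differences as log2 fold changes with standard errors from edgeR's quasi-likelihood test over all 32 libraries. Every adjusted p is Benjamini-Hochberg adjusted over all 14313 genes of that comparison, and a gene was called at an adjusted p below 0.05. Foxp3 stood at 355 to 672 CPM and Cd4 at 323 to 654 CPM over the 32 libraries. The summed level of 7 Treg markers was 3567 to 3772 CPM in resting cells and 4928 to 6381 CPM in the cultures. Among these markers Il2ra alone spanned 584 to 3533 CPM, so the sum does not measure the purity of the cells. The sum of 8 markers of conventional helper T cells was 306 to 331 CPM in resting cells and 181 to 337 CPM in the cultures. The sum of 10 markers of NK, gamma-delta and CD8 T cells was 8.14 to 12.3 CPM in the cultures and 27.8 to 31.4 CPM in resting cells, with Ncr1 at 0 in all libraries. The sum of 11 myeloid and dendritic cell markers was 0.0564 to 1.34 CPM in the cultures and 10.7 to 11.2 CPM in resting cells, with Clec9a at 0 in all libraries. A transcript of the ribosomal RNA locus on chromosome 17 took 1407 to 11860 CPM in the agonist libraries of 18 h and 8114 to 26030 CPM in their controls, and it exceeded 10000 CPM in 6 libraries. All comparisons were also computed without those 6 libraries, which include 18 h control replicates 1 and 2. That setting leaves only replicate 3 in the 18 h control group. The part of the lost replicates in calls lost under that setting was not tested. The part of these other transcripts in the results was not tested.

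In resting Tregs the 10 genes spanned a wide range of abundance per transcript length. Tigit was the most abundant at 247 TPM (transcript abundance scaled by length and library, as deposited) as a mean of 3 libraries, followed by Vsir at 215, Cd96 at 174, Btla at 119.8 and Cd200 at 116 TPM. Pdcd1 stood at 85.7, Cd274 at 41.8, Lag3 at 40.4, Cd160 at 14.8 and Havcr2 at 2.0 TPM. In each of the 10 cultured groups Cd200 was the most abundant. At 18 h the gene took 42% of the summed TPM of the 10 genes with the TNFR2 agonist, 45.2% with the 4-1BB agonist, 39.2% with the DR3 agonist and 38% with the OX40 agonist, against 28.5% in the controls. Its share was 11% in resting cells. Tigit took 10.9% with the 4-1BB agonist, against 25.4% in the controls at 18 h, and 10.6% against 19.9% at 36 h. The summed level itself was 1056 TPM in resting cells (1029 to 1085), 1020 TPM in the 18 h controls (1011 to 1036) and 625 TPM in the 36 h controls (617 to 629). It was 853 to 999 TPM in the agonist groups of 18 h and 584 to 629 TPM in those of 36 h. In bulk RNA, fewer cells carrying a transcript and less of it per cell cannot be told apart.

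**Figure D1:**
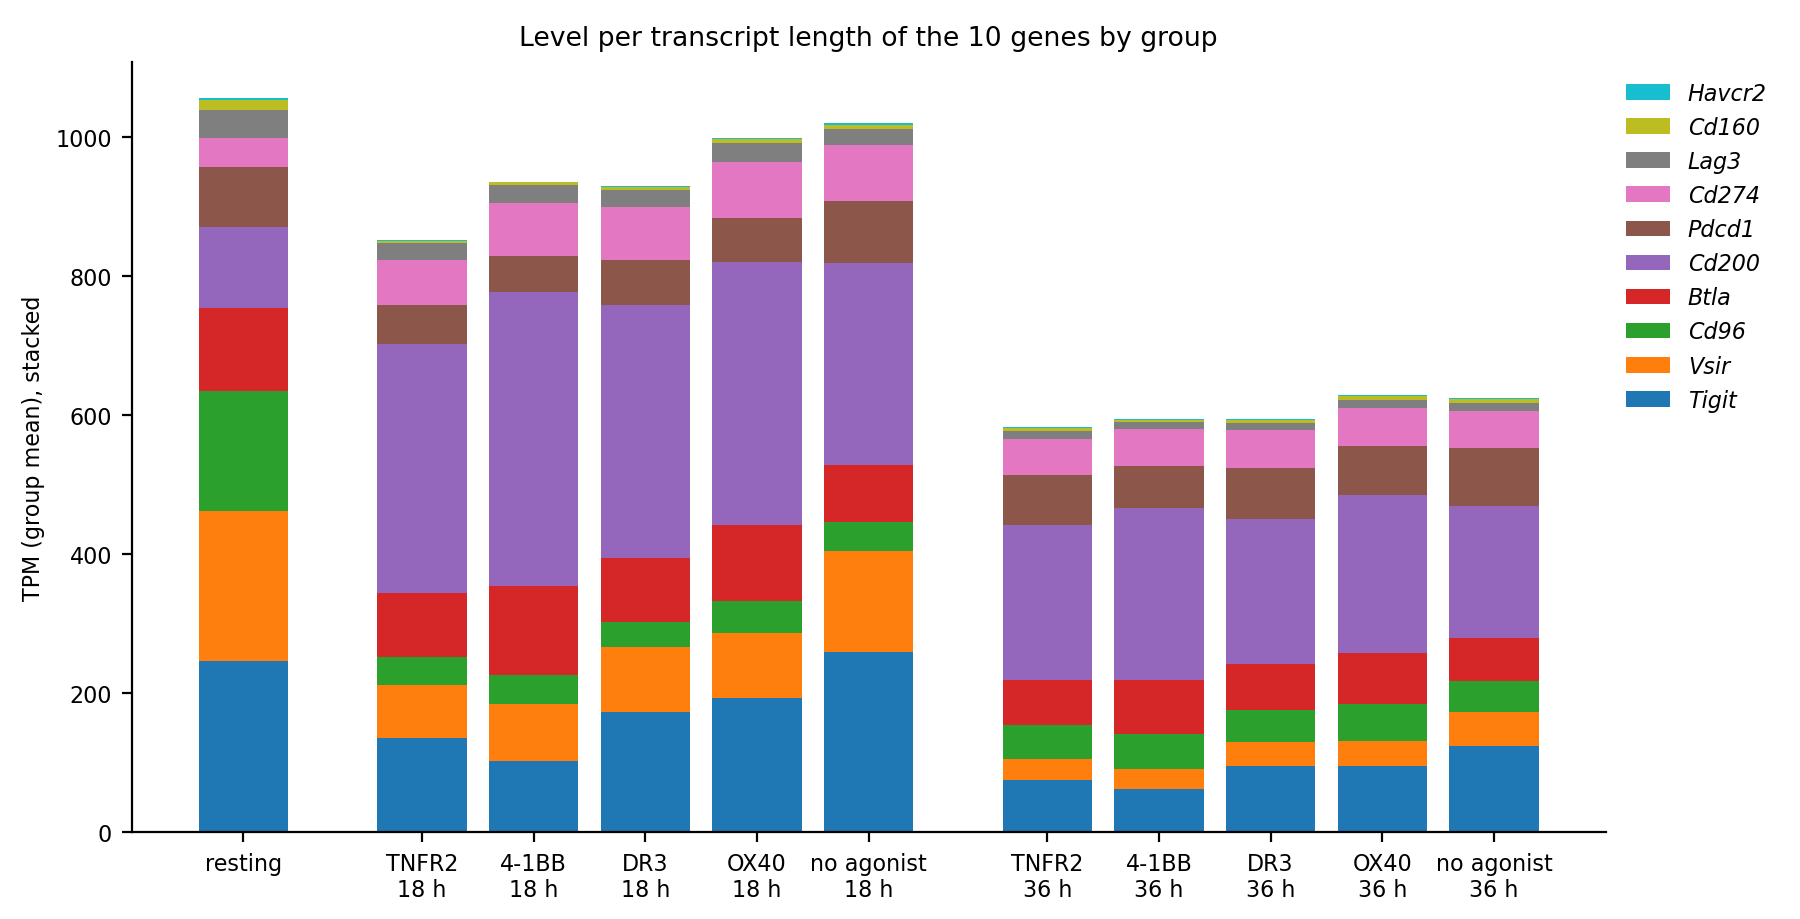
Stacked bars show the mean TPM of the 10 genes in each of the 11 groups, with resting cells at the left and, at 18 h and 36 h, the 4 agonist groups left of their control. The Cd200 segment is the tallest of every cultured group, and the whole bars of 36 h are shorter than those of 18 h.

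In the 18 h controls all 10 genes were called against resting cells, 5 higher and 5 lower. In this comparison 80.9% of all genes tested were called (40.9% higher and 40.1% lower), so that the count is close to the background. The higher calls of Tigit, Pdcd1 and Havcr2 did not hold in every setting, as given below. At 36 h, 3 were higher and 6 lower than in resting cells, with 84.5% of all genes called (42.4% higher and 42.1% lower). Between 36 h and 18 h of culture, 7 of the 10 were lower and none was higher, where 52.2% of all genes were called, 25.6% higher and 26.6% lower. The members' median log2 fold change of 36 h over 18 h was -0.44, beside -0.02 over all genes tested.

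Cd200 and Cd274, both genes of ligands, rose most. Cd200 (ENSMUSG00000022661, chr16:45382135-45409053, minus strand) stood at 60.7, 67.1 and 69.5 CPM in resting cells, 159, 168 and 170.4 CPM at 18 h and 124, 125 and 119 CPM at 36 h. All cultured libraries were above all resting ones, and those of 18 h were above those of 36 h. The log2 fold change was 1.34 ± 0.04 (adjusted p = 9.09e-31) at 18 h and 0.90 ± 0.05 (adjusted p = 1.08e-23) at 36 h. Cd274 (ENSMUSG00000016496, chr19:29367455-29388095, plus strand) stood at 75.5, 78.8 and 80.9 CPM in resting cells, 165, 169.6 and 165 CPM at 18 h and 107, 110.1 and 109 CPM at 36 h, in the same order of groups without overlap. Its log2 fold change was 1.09 ± 0.04 (adjusted p = 2.33e-27) at 18 h and 0.47 ± 0.04 (adjusted p = 1.42e-13) at 36 h. Plgrkt, which lies 65 bases from Cd274 in the annotation, was at 28.4 CPM in the 18 h controls and 106.5 CPM in resting cells. An antisense gene overlaps Cd274, and without strand their reads cannot be told apart.

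Cd96 and Cd160 fell early. Cd96 (ENSMUSG00000022657, chr16:46035657-46120251, minus strand) had 202, 186 and 180.4 CPM in resting cells, 49.7, 53.1 and 47.9 CPM at 18 h and 52.5, 56.6 and 53.0 CPM at 36 h, so both control groups were below all resting libraries. The log2 fold change at 18 h was -1.92 ± 0.05 (adjusted p = 3.08e-33), and the 36 h and 18 h controls differed by 0.11 ± 0.06 (adjusted p = 0.112), although this difference was called, at 0.15, without 18 h control replicate 2. Cd160 (ENSMUSG00000038304, chr3:96798763-96829351, minus strand), a GPI-anchored receptor also known from NK and CD8 T cells, had 9.86, 8.70 and 8.84 CPM in resting cells, 4.03, 3.58 and 3.86 CPM at 18 h and 2.64, 3.41 and 3.29 CPM at 36 h. The log2 fold change at 18 h was -1.25 ± 0.13 (adjusted p = 8.22e-12). The summed markers of NK, gamma-delta and CD8 T cells, cells that carry CD96 as well, were also lower in the cultures, at 8.14 to 12.3 CPM, against 27.8 to 31.4 CPM in resting cells. Their part in the Cd96 and Cd160 results was not tested.

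Vsir, Tigit, Lag3 and Btla fell over the course of culture, and for Vsir and Tigit most of the drop came after 18 h. Vsir (ENSMUSG00000020101, chr10:60346851-60372684, plus strand) had 251, 240.2 and 264 CPM in resting cells, 228, 216 and 217 CPM at 18 h and 76.4, 72.1 and 71.8 CPM at 36 h. Neighbouring times did not overlap. The log2 fold change of 36 h over 18 h was -1.58 ± 0.04 (adjusted p = 1.33e-32), beside -0.19 ± 0.04 (adjusted p = 4.85e-05) for 18 h over resting cells. Over the alternative settings this early value ran from -0.55 to -0.16. In TPM, Vsir stood at 214.6 in resting cells, 145.8 at 18 h and 48.61 at 36 h. Tigit (ENSMUSG00000071552, chr16:43648867-43664146, minus strand) had 99.2, 96.0 and 104 CPM in resting cells, 112, 119 and 113 CPM at 18 h and 55.8, 54.4 and 55.7 CPM at 36 h. Its log2 fold change was -1.05 ± 0.04 (adjusted p = 1.55e-25) between the later times, with every library of 36 h below those of both other groups. The small early difference of Tigit, 0.21 ± 0.04 (adjusted p = 3.43e-05), was not called when normalisation used only genes of at least 5 CPM (0.03) or with limma on log2(TPM + 1) (0.07). Lag3 (ENSMUSG00000030124, chr6:124904361-124911705, minus strand) had 39.2, 38.4 and 42.5 CPM in resting cells, 25.8, 23.5 and 24.2 CPM at 18 h and 13.8, 12.3 and 13.8 CPM at 36 h, and no group overlapped another. Lag3 had log2 fold changes of -0.71 ± 0.07 (adjusted p = 9.5e-13) for 18 h over resting cells and -0.88 ± 0.08 (adjusted p = 1.06e-13) for 36 h over 18 h. Btla (ENSMUSG00000052013, chr16:45224315-45257670, plus strand) had 169, 188 and 181 CPM in resting cells, 135, 130.1 and 129 CPM at 18 h and 100.3, 102 and 99.5 CPM at 36 h, also without overlap. Those of Btla were -0.45 ± 0.05 (adjusted p = 1.08e-10) and -0.38 ± 0.05 (adjusted p = 2.64e-08) for the same steps. Btla is also a B cell gene, and a list of 8 B cell markers summed to 724 to 765 CPM in resting cells, 294 to 317 CPM at 18 h and 268 to 282 CPM at 36 h. Nearly all of that sum was Ighm, with Ms4a1 at or below 1.10 CPM in all 32 libraries.

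Pdcd1 differed little between the times, and the changes of Havcr2 were imprecise at its low counts. Pdcd1 (ENSMUSG00000026285, chr1:94038305-94052553, minus strand) had 82.1, 78.3 and 84.9 CPM in resting cells, 94.8, 94.1 and 95.5 CPM at 18 h and 88.7, 85.2 and 93.6 CPM at 36 h. Its change at 18 h of 0.22 ± 0.04 (adjusted p = 1.93e-05) was not called with the 5 CPM minimum (0.04) or with limma (0.07), and that at 36 h of 0.13 ± 0.04 (adjusted p = 0.00633) turned to -0.05 and -0.02 under these settings. The 36 h change was not called without resting replicate 2 (0.09) or 36 h control replicate 3 (0.10) either, and the difference between 36 h and 18 h, -0.09 ± 0.04 (adjusted p = 0.0754), was called without 36 h control replicate 3 (-0.12). Havcr2 (ENSMUSG00000020399, chr11:46454935-46481255, plus strand), the gene of TIM-3, was low, at 2.0, 2.21 and 4.07 CPM in resting cells, 4.20, 3.96 and 3.76 CPM at 18 h and 2.74, 3.45 and 2.55 CPM at 36 h. The resting libraries overlapped both control groups, and the 18 h controls lay above the 36 h controls. Its increase of 0.55 ± 0.19 (adjusted p = 0.00652) at 18 h rested on single resting libraries, being 0.35 without replicate 1 and 0.40 without replicate 2, neither of them called. With the ribosomal share as a covariate it was 0.41, and without the libraries high in the ribosomal transcript 0.49, again not called. The 36 h difference from resting cells was 0.11 ± 0.19 (adjusted p = 0.61), and was called at 0.46 without resting replicate 3. Its fall between the later times, -0.45 ± 0.17 (adjusted p = 0.0239), was lost without 18 h control replicate 1 (-0.41) or 2 (-0.45) or without 36 h control replicate 1 (-0.41) or 3 (-0.35), and with DESeq2 (-0.44), limma (-0.32), the ribosomal share as a covariate (-0.28) or without the libraries high in the ribosomal transcript (-0.37).

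**Figure D2:**
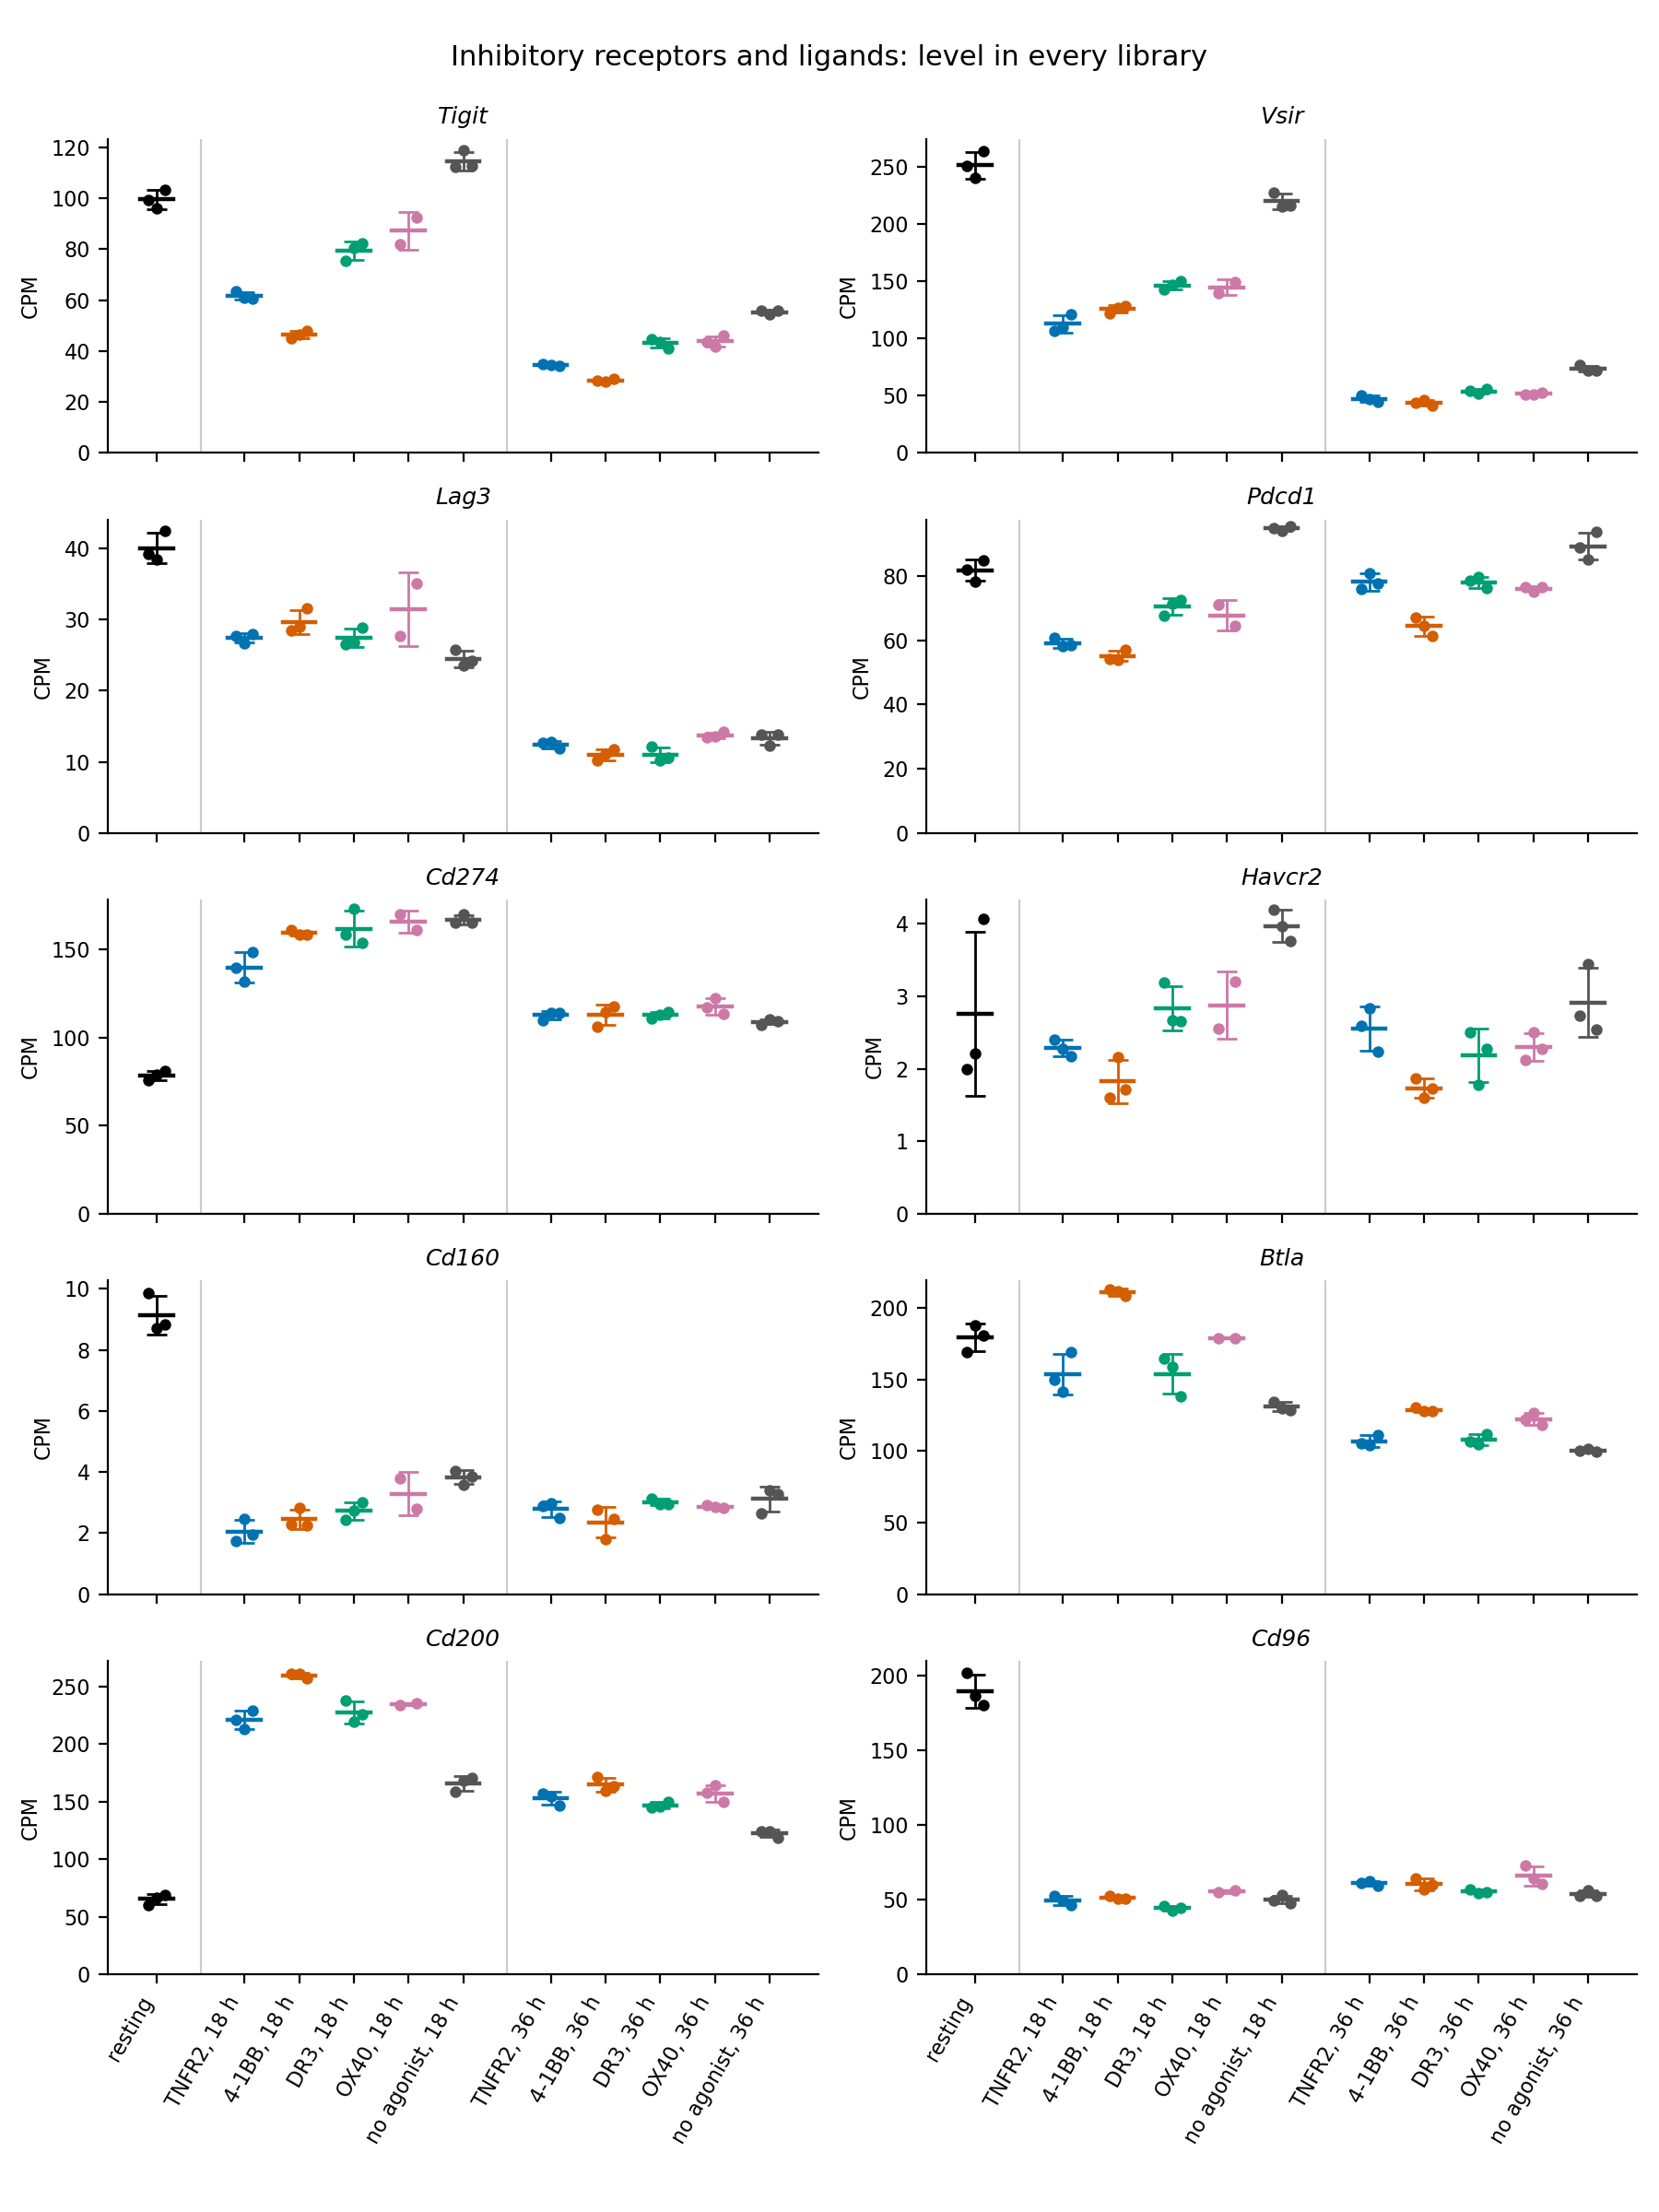
Each panel shows the level of a gene in CPM in all 32 libraries, with points for libraries, a bar for the group mean and whiskers for the SD. Within each time the 4 agonist groups stand left of their control. Tigit, Vsir and Pdcd1 lie below their control and Cd200 above it in every agonist group at both times.

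The agonists gave a repeated split within the set. Over the 8 comparisons of an agonist with its control, which share their controls within a time, Tigit, Vsir and Pdcd1 were lower in all 8 and Cd200 was higher in all 8. Btla was higher in 6. The share of all genes called the same way in all 8 is not given here, so these repeats are a description. Of the 80 tests of a member, 34 were called lower and 19 higher. At 18 h, 8 members were called with the TNFR2 agonist (2 higher and 6 lower, against 31.1% of all genes called, 15.8% higher and 15.3% lower), 8 with the 4-1BB agonist (3 higher and 5 lower, against 25.8%, 12.7% higher and 13.1% lower), 7 with the DR3 agonist (2 higher and 5 lower, against 19.6%, 9.66% higher and 9.94% lower) and 6 with the OX40 agonist (3 higher and 3 lower, against 19%, 9.32% higher and 9.71% lower). At 36 h the counts were 5 with the TNFR2 agonist (2 higher and 3 lower, against 24.8%, 13% higher and 11.9% lower), 8 with the 4-1BB agonist (3 higher and 5 lower, against 22.5%, 10.9% higher and 11.5% lower), 5 with the DR3 agonist (1 higher and 4 lower, against 13.4%, 6.97% higher and 6.39% lower) and 6 with the OX40 agonist (3 higher and 3 lower, against 13.3%, 7.12% higher and 6.21% lower). The median log2 fold change of the 10 genes at 18 h was -0.47, -0.35, -0.30 and -0.11 in the order TNFR2, 4-1BB, DR3, OX40, where the median over all genes lay between -0.01 and 0. With limma on log2(TPM + 1) the share of called genes that were higher was 32.7% in place of 49.3% for DR3 at 18 h, 39.7% in place of 52.2% for TNFR2 at 36 h and 42.5% in place of 53.4% for OX40 at 36 h.

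**Figure D3:**
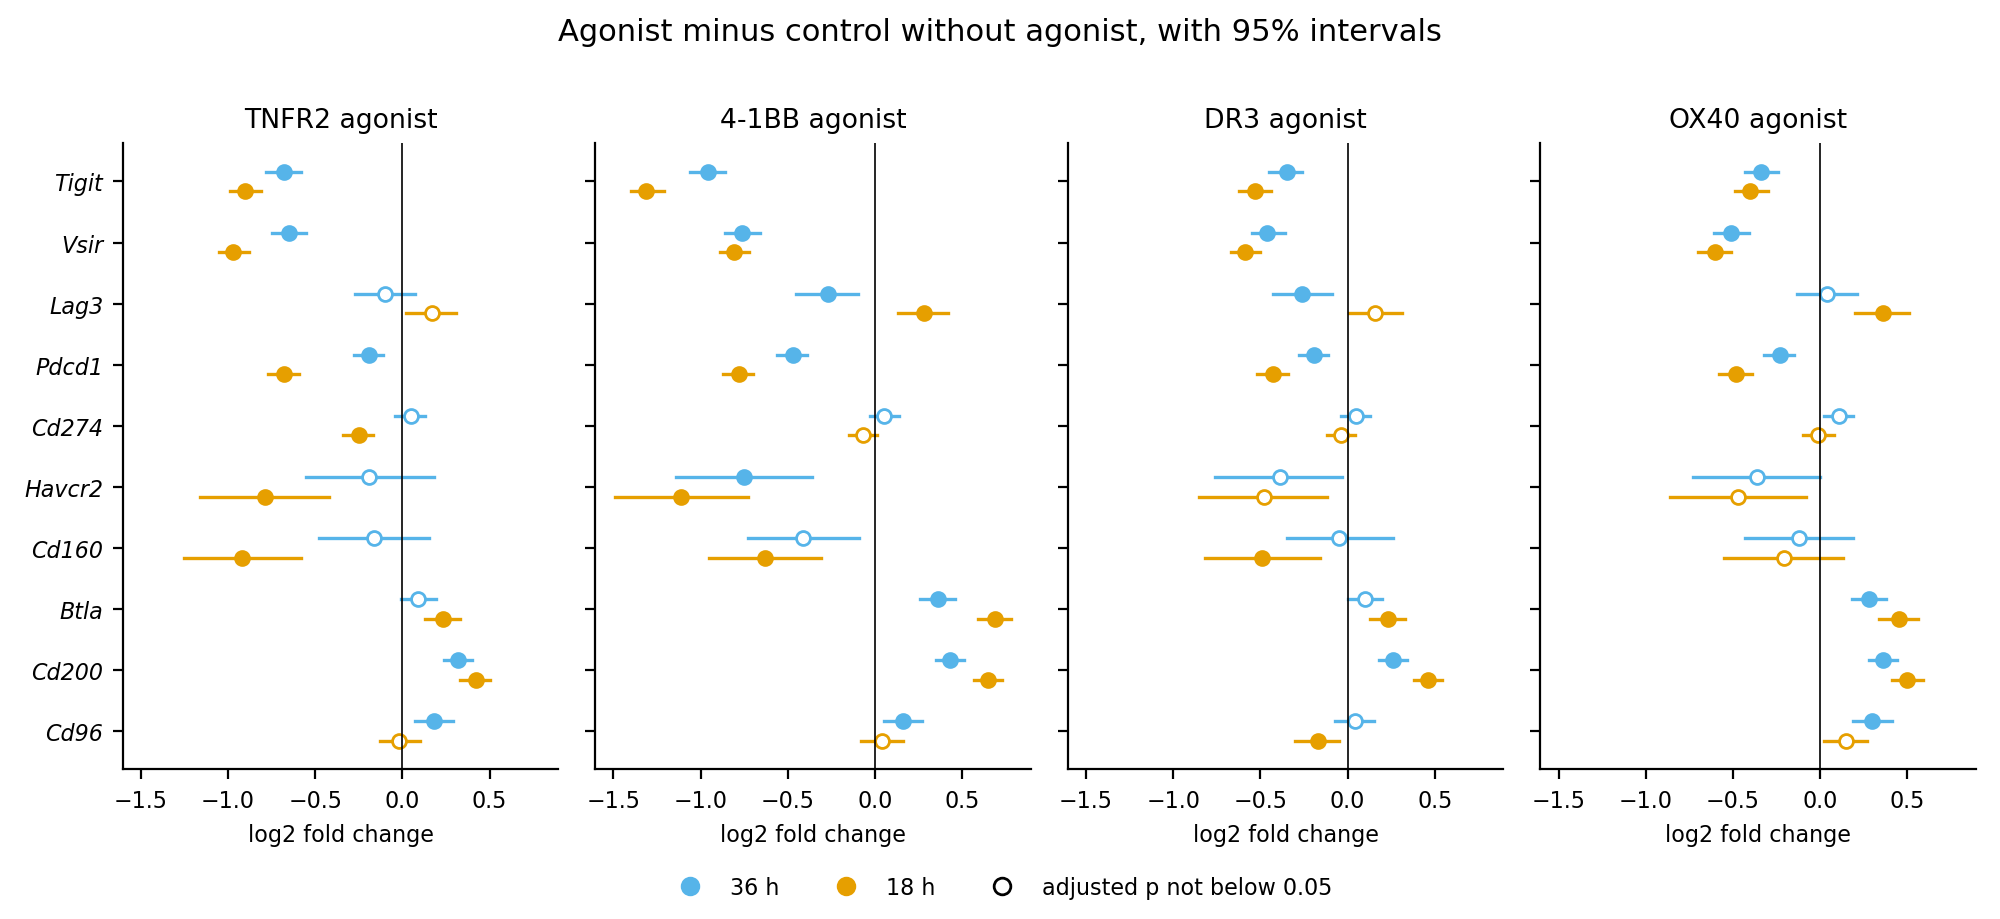
Points give the log2 fold change of each agonist over its control for each of the 10 genes, with 95% intervals, 36 h in blue above 18 h in orange, and open points for changes that were not called. Tigit, Vsir and Pdcd1 lie left of 0 and Cd200 right of 0 in all 8 comparisons.

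Tigit showed the widest response. At 18 h it stood at 63.4, 60.8 and 60.6 CPM with the TNFR2 agonist, 44.8, 46.4 and 48.0 CPM with the 4-1BB agonist, 75.3, 80.6 and 82.4 CPM with the DR3 agonist, 82.0 and 92.6 CPM with the OX40 agonist, against 112, 119 and 113 CPM in the controls. All agonist libraries were below all controls, and the 4-1BB libraries were below those of every other agonist. The log2 fold changes at 18 h were -0.90 ± 0.04 (adjusted p = 6.56e-22) with the TNFR2 agonist, -1.31 ± 0.05 (adjusted p = 4.24e-28) with the 4-1BB agonist, -0.53 ± 0.04 (adjusted p = 1.32e-13) with the DR3 agonist and -0.40 ± 0.05 (adjusted p = 8.55e-09) with the OX40 agonist. At 36 h Tigit stood at 34.7, 34.4 and 34.2 CPM with the TNFR2 agonist, 28.4, 28 and 28.9 CPM with the 4-1BB agonist, 44.7, 43.5 and 41 CPM with the DR3 agonist, 43.4, 41.9 and 45.9 CPM with the OX40 agonist, against 55.8, 54.4 and 55.7 CPM in the controls, again without overlap with the controls. The 4-1BB agonist left it at 28.4 ± 0.466 CPM, the lowest of the 11 groups, and the 36 h log2 fold changes were -0.68 ± 0.05 (adjusted p = 1.41e-15) with the TNFR2 agonist, -0.96 ± 0.05 (adjusted p = 9.2e-21) with the 4-1BB agonist, -0.35 ± 0.05 (adjusted p = 1.51e-07) with the DR3 agonist and -0.34 ± 0.05 (adjusted p = 3.69e-07) with the OX40 agonist.

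Cd96, the related receptor of the same ligand, did not follow Tigit. At 18 h its libraries spanned 46.6 to 52.5 CPM with the TNFR2 agonist, 51.1 to 52.6 CPM with the 4-1BB agonist, 42.8 to 46.0 CPM with the DR3 agonist, 54.9 to 56.4 CPM with the OX40 agonist, against 47.9 to 53.1 CPM in the controls. The TNFR2 and 4-1BB libraries overlapped the controls, those of DR3 were all below and those of OX40 all above them. The DR3 agonist alone was called, at -0.17 ± 0.06 (adjusted p = 0.0351), and this call was lost without 18 h control replicate 1 (-0.18) or 2 (-0.13), without DR3 replicate 2 (-0.14) or 3 (-0.18), with DESeq2 (-0.16), and without the libraries high in the ribosomal transcript (-0.11). At 36 h the range was 59.4 to 62.6 CPM with the TNFR2 agonist, 56.8 to 64.7 CPM with the 4-1BB agonist, 54.8 to 56.9 CPM with the DR3 agonist, 60.7 to 73.0 CPM with the OX40 agonist, against 52.5 to 56.6 CPM in the controls. The log2 fold changes were 0.18 ± 0.06 (adjusted p = 0.0129) with the TNFR2 agonist, 0.16 ± 0.05 (adjusted p = 0.0235) with the 4-1BB agonist, 0.04 ± 0.05 (adjusted p = 0.679) with the DR3 agonist and 0.30 ± 0.05 (adjusted p = 3.83e-05) with the OX40 agonist, and DR3 was not called. The TNFR2 value was 0.16 and not called without 36 h control replicate 1 or TNFR2 replicate 2, and it was not called with limma (0.13) or without the libraries high in the ribosomal transcript (0.17) either. That of 4-1BB was not called without 36 h control replicate 1 or 3 (0.15 each) or without 4-1BB replicate 1 (0.12) or 3 (0.17), or with limma (0.15). Pvr, the gene of the shared ligand, was called in 3 of the 8 agonist comparisons, lower in 2 and higher in 1. At 18 h it stood at 36.9 ± 0.0742 CPM with the TNFR2 agonist and 40.2 ± 1.68 CPM with the 4-1BB agonist, against 44.4 ± 0.809 CPM in the controls (SD, n = 3 each). It was lower with both, at -0.26 ± 0.05 (adjusted p = 0.000104) for TNFR2 and -0.14 ± 0.05 (adjusted p = 0.0442) for 4-1BB. At 36 h it was higher with the OX40 agonist, at 59.3 ± 2.48 CPM against 51.6 ± 2.73 CPM in the controls, a change of 0.20 ± 0.05 (adjusted p = 0.00193). For Cd226, the gene of the rival receptor, the value was 0.00 ± 0.05 (adjusted p = 0.986) with the 4-1BB agonist at 18 h, which was not called.

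Pdcd1 was lower with every agonist. At 18 h Pdcd1 stood at 60.8, 58.2 and 58.3 CPM with the TNFR2 agonist, 54.3, 54.0 and 56.9 CPM with the 4-1BB agonist, 67.7, 71.4 and 72.4 CPM with the DR3 agonist, 71.1 and 64.3 CPM with the OX40 agonist, against 94.8, 94.1 and 95.5 CPM in the controls. All agonist libraries were below all controls. The log2 fold changes were -0.68 ± 0.04 (adjusted p = 1.13e-17) with the TNFR2 agonist, -0.78 ± 0.04 (adjusted p = 4.4e-20) with the 4-1BB agonist, -0.43 ± 0.04 (adjusted p = 9.05e-11) with the DR3 agonist and -0.48 ± 0.05 (adjusted p = 5.06e-11) with the OX40 agonist. At 36 h Pdcd1 stood at 75.8, 80.9 and 77.6 CPM with the TNFR2 agonist, 67.2, 64.5 and 61.3 CPM with the 4-1BB agonist, 78.4, 79.5 and 76.2 CPM with the DR3 agonist, 76.4, 75.1 and 76.4 CPM with the OX40 agonist, against 88.7, 85.2 and 93.6 CPM in the controls, without overlap but with smaller gaps. The changes at 36 h were -0.19 ± 0.04 (adjusted p = 0.000506) with the TNFR2 agonist, -0.47 ± 0.04 (adjusted p = 1.13e-12) with the 4-1BB agonist, -0.19 ± 0.04 (adjusted p = 0.000797) with the DR3 agonist and -0.23 ± 0.04 (adjusted p = 5.44e-05) with the OX40 agonist.

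Cd274 was called in 1 of the 8 comparisons. At 18 h it had 139, 132 and 148 CPM with the TNFR2 agonist, against 165, 169.6 and 165 CPM in the controls. The 2 groups did not overlap, and the change was -0.25 ± 0.04 (adjusted p = 2.19e-06). With the other 3 agonists at 18 h the log2 fold change lay between -0.07 and -0.01, and at 36 h those of all 4 agonists lay between 0.05 and 0.11, none of them called. The 4-1BB value at 18 h (-0.07) was called when only the groups compared were fitted. Pdcd1lg2, the gene of PD-L2, stood at a log2 fold change of -0.16 ± 0.07 (adjusted p = 0.0957) with the 4-1BB agonist at 18 h, which was not called.

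Btla and Cd160, both receptors of HVEM, were called in opposite directions with the TNFR2, 4-1BB and DR3 agonists at 18 h. Btla at 18 h stood at 149.9, 141 and 169 CPM with the TNFR2 agonist, 213, 212 and 208 CPM with the 4-1BB agonist, 165, 159 and 138 CPM with the DR3 agonist, 179 and 179 CPM with the OX40 agonist, against 135, 130.1 and 129 CPM in the controls. All agonist libraries were above all controls, and those of the 4-1BB agonist were the highest of the experiment. The log2 fold changes were 0.23 ± 0.05 (adjusted p = 4e-04) with the TNFR2 agonist, 0.69 ± 0.05 (adjusted p = 7.97e-15) with the 4-1BB agonist, 0.23 ± 0.05 (adjusted p = 0.000516) with the DR3 agonist and 0.45 ± 0.05 (adjusted p = 2.98e-08) with the OX40 agonist, where that of DR3 was 0.15 and not called with limma. At 36 h Btla stood at 105, 104 and 111 CPM with the TNFR2 agonist, 130.3, 128 and 128 CPM with the 4-1BB agonist, 107, 104 and 112 CPM with the DR3 agonist, 122, 126 and 118 CPM with the OX40 agonist, against 100.3, 102 and 99.5 CPM in the controls. The called changes were 0.36 ± 0.05 (adjusted p = 4.04e-07) with the 4-1BB agonist and 0.28 ± 0.05 (adjusted p = 5.6e-05) with the OX40 agonist, and the values of 0.09 with the TNFR2 agonist and 0.10 with the DR3 agonist were not called. The summed B cell markers, nearly all Ighm, were 406 to 424 CPM with the 4-1BB agonist and 367 to 396 CPM with the TNFR2 agonist, against 294 to 317 CPM in the 18 h controls. Ms4a1 was near 0, and the part of the B cell markers in the Btla result was not tested.

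Cd160 was a low transcript in culture, with 1.74 to 2.46 CPM with the TNFR2 agonist, 2.25 to 2.82 CPM with the 4-1BB agonist, 2.44 to 3.02 CPM with the DR3 agonist, 2.78 to 3.78 CPM with the OX40 agonist, against 3.58 to 4.03 CPM in the controls at 18 h. The agonist libraries lay below the controls except for OX40, whose libraries overlapped them. The changes were -0.92 ± 0.17 (adjusted p = 2.31e-05) with the TNFR2 agonist, -0.63 ± 0.16 (adjusted p = 0.00189) with the 4-1BB agonist and -0.49 ± 0.16 (adjusted p = 0.0268) with the DR3 agonist, and the OX40 value of -0.21 was not called. The DR3 call was lost without 18 h control replicate 1 (-0.45) or 3 (-0.48) or DR3 replicate 1 (-0.42) or 2 (-0.49), with no filter on low counts (-0.49), with DESeq2 (-0.48) and without the libraries high in the ribosomal transcript (-0.51). The 4-1BB call was lost without the libraries high in the ribosomal transcript (-0.65). At 36 h no agonist was called. The 36 h value for 4-1BB, -0.41 ± 0.16 (adjusted p = 0.0606), was called without 36 h control replicate 1 (-0.51) or 4-1BB replicate 1 (-0.54), and with limma (-0.40). Their shared ligand gene Tnfrsf14 rose with the TNFR2 agonist at 18 h, by 0.22 ± 0.07 (adjusted p = 0.0106) on the log2 scale, and stood at 0.07 ± 0.07 (adjusted p = 0.484) with the 4-1BB agonist.

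Cd200, the ligand of CD200R1, was higher with every agonist. At 18 h it stood at 221, 213 and 229 CPM with the TNFR2 agonist, 261, 261 and 257 CPM with the 4-1BB agonist, 238, 219 and 226 CPM with the DR3 agonist, 234 and 235 CPM with the OX40 agonist, against 159, 168 and 170.4 CPM in the controls. All agonist libraries were above all controls, with the 4-1BB libraries highest. The log2 fold changes were 0.42 ± 0.04 (adjusted p = 4.63e-12) with the TNFR2 agonist, 0.65 ± 0.04 (adjusted p = 8.86e-19) with the 4-1BB agonist, 0.46 ± 0.04 (adjusted p = 7.05e-13) with the DR3 agonist and 0.50 ± 0.04 (adjusted p = 7.3e-13) with the OX40 agonist. At 36 h Cd200 stood at 157, 155 and 147 CPM with the TNFR2 agonist, 172, 159 and 163 CPM with the 4-1BB agonist, 145, 146 and 150.1 CPM with the DR3 agonist, 158, 164 and 149.9 CPM with the OX40 agonist, against 124, 125 and 119 CPM in the controls, without overlap. The changes were 0.32 ± 0.04 (adjusted p = 2.26e-08) with the TNFR2 agonist, 0.43 ± 0.04 (adjusted p = 4.26e-12) with the 4-1BB agonist, 0.26 ± 0.04 (adjusted p = 3.28e-06) with the DR3 agonist and 0.36 ± 0.04 (adjusted p = 1.52e-09) with the OX40 agonist, of which that of DR3 was 0.15 and not called with limma. The gene of its receptor, Cd200r1, moved the other way with the 4-1BB agonist, at 6.47 ± 0.586 CPM against 11.2 ± 1.41 CPM in the controls at 18 h (SD, n = 3 each), a change of -0.79 ± 0.13 (adjusted p = 8.35e-06).

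Vsir was lower with every agonist. At 18 h it stood at 107, 109.9 and 121 CPM with the TNFR2 agonist, 122, 127 and 128 CPM with the 4-1BB agonist, 143, 146 and 150.0 CPM with the DR3 agonist, 139.9 and 149.5 CPM with the OX40 agonist, against 228, 216 and 217 CPM in the controls. All agonist libraries were below all controls, and the TNFR2 libraries were the lowest. The log2 fold changes were -0.97 ± 0.04 (adjusted p = 1.36e-23) with the TNFR2 agonist, -0.81 ± 0.04 (adjusted p = 3.89e-21) with the 4-1BB agonist, -0.59 ± 0.04 (adjusted p = 1.79e-15) with the DR3 agonist and -0.60 ± 0.05 (adjusted p = 2.77e-14) with the OX40 agonist. At 36 h Vsir stood at 49.6, 47.0 and 44.1 CPM with the TNFR2 agonist, 43.4, 46.0 and 40.7 CPM with the 4-1BB agonist, 53.7, 51.9 and 55.2 CPM with the DR3 agonist, 51.0, 51.2 and 52.8 CPM with the OX40 agonist, against 76.4, 72.1 and 71.8 CPM in the controls, on a control level that was itself lower. The changes were -0.65 ± 0.05 (adjusted p = 7.3e-15) with the TNFR2 agonist, -0.76 ± 0.05 (adjusted p = 2e-17) with the 4-1BB agonist, -0.46 ± 0.05 (adjusted p = 3.51e-10) with the DR3 agonist and -0.51 ± 0.05 (adjusted p = 1.63e-11) with the OX40 agonist. Vsir lies on the plus strand inside Cdh23, which runs on the minus strand, and the library kit does not mark strand. Cdh23 was at 4.11 CPM with the 4-1BB agonist, against 7.58 CPM in the 18 h controls, a small fraction of the Vsir level.

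Lag3, the CD4-like receptor of MHC class II, had no call against a control that held in every setting. Lag3 at 18 h spanned 26.7 to 28 CPM with the TNFR2 agonist, 28.5 to 31.6 CPM with the 4-1BB agonist, 26.5 to 28.9 CPM with the DR3 agonist, 27.8 to 35.1 CPM with the OX40 agonist, against 23.5 to 25.8 CPM in the controls. The groups of every agonist were above the controls, yet only 4-1BB and OX40 were called, at 0.28 ± 0.07 (adjusted p = 0.00209) with the 4-1BB agonist and 0.36 ± 0.08 (adjusted p = 0.000509) with the OX40 agonist. The OX40 value was 0.18 and not called without OX40 replicate 2, and that of 4-1BB was 0.29 and not called without the libraries high in the ribosomal transcript. At 36 h Lag3 spanned 11.9 to 12.8 CPM with the TNFR2 agonist, 10.2 to 11.7 CPM with the 4-1BB agonist, 10.2 to 12.2 CPM with the DR3 agonist, 13.5 to 14.2 CPM with the OX40 agonist, against 12.3 to 13.8 CPM in the controls. Here the 4-1BB and DR3 agonists were called lower, at -0.27 ± 0.09 (adjusted p = 0.0156) with the 4-1BB agonist and -0.26 ± 0.08 (adjusted p = 0.0319) with the DR3 agonist. The 4-1BB call was lost without 36 h control replicate 1 or 3 (-0.25 each) or 4-1BB replicate 1 (-0.22). The DR3 call was lost without 36 h control replicate 1 or 3, or DR3 replicate 3 (-0.23 each), or DR3 replicate 2 (-0.21), and without the libraries high in the ribosomal transcript (-0.23).

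Havcr2 was at 2.17 to 2.40 CPM with the TNFR2 agonist, 1.6 to 2.16 CPM with the 4-1BB agonist, 2.65 to 3.19 CPM with the DR3 agonist, 2.55 to 3.20 CPM with the OX40 agonist, against 3.76 to 4.20 CPM in the controls at 18 h. No agonist group overlapped the controls, and the TNFR2 and 4-1BB agonists were called, at -0.79 ± 0.18 (adjusted p = 0.000657) with the TNFR2 agonist and -1.11 ± 0.19 (adjusted p = 5.92e-06) with the 4-1BB agonist. The TNFR2 value was -0.76 and not called without the libraries high in the ribosomal transcript. The DR3 and OX40 values of -0.48 and -0.47 were not called, although that of DR3 was called, at -0.48, when only the groups compared were fitted. At 36 h Havcr2 was at 1.87, 1.6 and 1.73 CPM with the 4-1BB agonist, against 2.74, 3.45 and 2.55 CPM in the controls, and this was the only call of that time, -0.75 ± 0.19 (adjusted p = 0.00293). Lgals9, the gene of galectin-9, changed by -0.26 ± 0.04 (adjusted p = 5.71e-06) with the 4-1BB agonist at 18 h.

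The 4 agonists differed in their effects on most members. A joint test of whether the 4 agonist groups of a time share a mean was called for 8 of the 10 members at 18 h, against 14.3% of all genes, and for 7 at 36 h, against 9.06%. Lag3 and Havcr2 were not called at 18 h, nor Cd274, Havcr2 and Cd160 at 36 h. In direct comparisons of the 6 agonist pairs at both times, 47 of 120 member tests were called, against 4.7% of all tests in the same 12 comparisons. Of the 60 member tests that involve 4-1BB, 29 were called. Single comparisons with 4-1BB called 3.63% to 8.54% of all genes, and those without it 1.7% to 8.19%. Tigit differed in 10 of 12 comparisons, Btla in 9, Vsir in 8 and Pdcd1 in 7.

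For Tigit the level with the 4-1BB agonist was below that with the DR3 agonist, at -0.77 ± 0.05 (adjusted p = 1.66e-17) at 18 h and -0.61 ± 0.05 (adjusted p = 2.22e-12) at 36 h, as log2 fold changes of 4-1BB over DR3. It was below that with the OX40 agonist, at -0.91 ± 0.05 (adjusted p = 4.93e-19) at 18 h and -0.62 ± 0.05 (adjusted p = 2.35e-12) at 36 h. The TNFR2 agonist left more Tigit than the 4-1BB agonist, at 0.41 ± 0.05 (adjusted p = 3.38e-08) for 18 h and 0.28 ± 0.06 (adjusted p = 0.00115) for 36 h. Vsir had another order in CPM at 18 h, where the TNFR2 level was below that of 4-1BB, at -0.16 ± 0.04 (adjusted p = 0.0235). In TPM these Vsir libraries overlapped, at 68.53 to 89.04 with TNFR2 and 80.07 to 86.85 with 4-1BB. Over all genes this comparison called 796, against 367 with limma and 382 to 1216 with 1 TNFR2 library left out, so the order is not secure. Btla was higher with 4-1BB than with DR3, at 0.45 ± 0.05 (adjusted p = 4.84e-09) at 18 h and 0.26 ± 0.05 (adjusted p = 0.000446) at 36 h.

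The DR3 and OX40 agonists gave values close to each other for several members. For Tigit the log2 fold change of DR3 over OX40 was -0.14 at 18 h (95% interval -0.24 to -0.04, adjusted p = 0.116) and -0.02 at 36 h (-0.12 to 0.08). For Vsir it was 0.02 (-0.08 to 0.11) and 0.05 (-0.05 to 0.15), and for Pdcd1 0.06 (-0.05 to 0.16) and 0.04 (-0.05 to 0.12), at 18 h and 36 h. For Cd200 it was -0.04 (-0.13 to 0.04) and -0.10 (-0.18 to -0.02). None of these 8 differences was called, which does not show that the agonists act alike, and the intervals bound the differences that remain possible. Btla and Cd96 did differ between them in the main fit, with log2 fold changes of DR3 over OX40 for Btla of -0.21 ± 0.05 at 18 h and -0.18 ± 0.05 at 36 h, and for Cd96 of -0.32 ± 0.07 and -0.26 ± 0.05. The 18 h comparison rests on 2 OX40 libraries and was unsteady. Over all genes it called 590, against 53 when only the groups compared were fitted and 307 without DR3 replicate 2.

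For 13 of 40 member tests the effect of an agonist at 36 h was called different from its effect at 18 h. For the TNFR2 agonist 5 members were called, against 6.69% of all genes, for 4-1BB 5, against 4.37%, for DR3 2, against 2.31%, and for OX40 1, against 3.48%. Pdcd1 was called with all 4 agonists. Its effect at 36 h minus that at 18 h was 0.49 ± 0.06 (adjusted p = 1.06e-07) for TNFR2, 0.31 ± 0.06 (adjusted p = 0.000571) for 4-1BB, 0.24 ± 0.06 (adjusted p = 0.0235) for DR3 and 0.25 ± 0.06 (adjusted p = 0.0158) for OX40, so its decrease was smaller at the later time. The DR3 and OX40 values did not hold in all settings. Without single libraries the DR3 value was 0.21 to 0.24 and not called for 7 of the libraries (DR3 replicate 1 of 18 h, DR3 replicates 1 and 2 of 36 h, 18 h control replicates 1 and 3, and 36 h control replicates 1 and 2), and the OX40 value was 0.18 without OX40 replicate 2 of 18 h and 0.22 without 36 h control replicate 2, neither called. Without the libraries high in the ribosomal transcript the DR3 value was 0.26 and the OX40 value 0.27, neither called, and that of OX40 was not called with limma (0.24) or the ribosomal share as a covariate (0.28) either. With the 4-1BB agonist the decrease of Tigit was smaller at 36 h, with a difference of 0.35 ± 0.07 (adjusted p = 0.000629), and the increases of Btla and Cd200 were smaller, with differences of -0.33 ± 0.07 (adjusted p = 0.00182) and -0.22 ± 0.06 (adjusted p = 0.012). The Cd200 value was -0.19 and not called without 18 h control replicate 1 or 4-1BB replicate 2 of 36 h, and with limma neither the Btla value (-0.31) nor the Cd200 value (-0.16) was called. Lag3 was lower at 36 h and higher at 18 h relative to control, with a difference of -0.55 ± 0.11 (adjusted p = 0.000769) for 4-1BB.

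**Figure D4:**
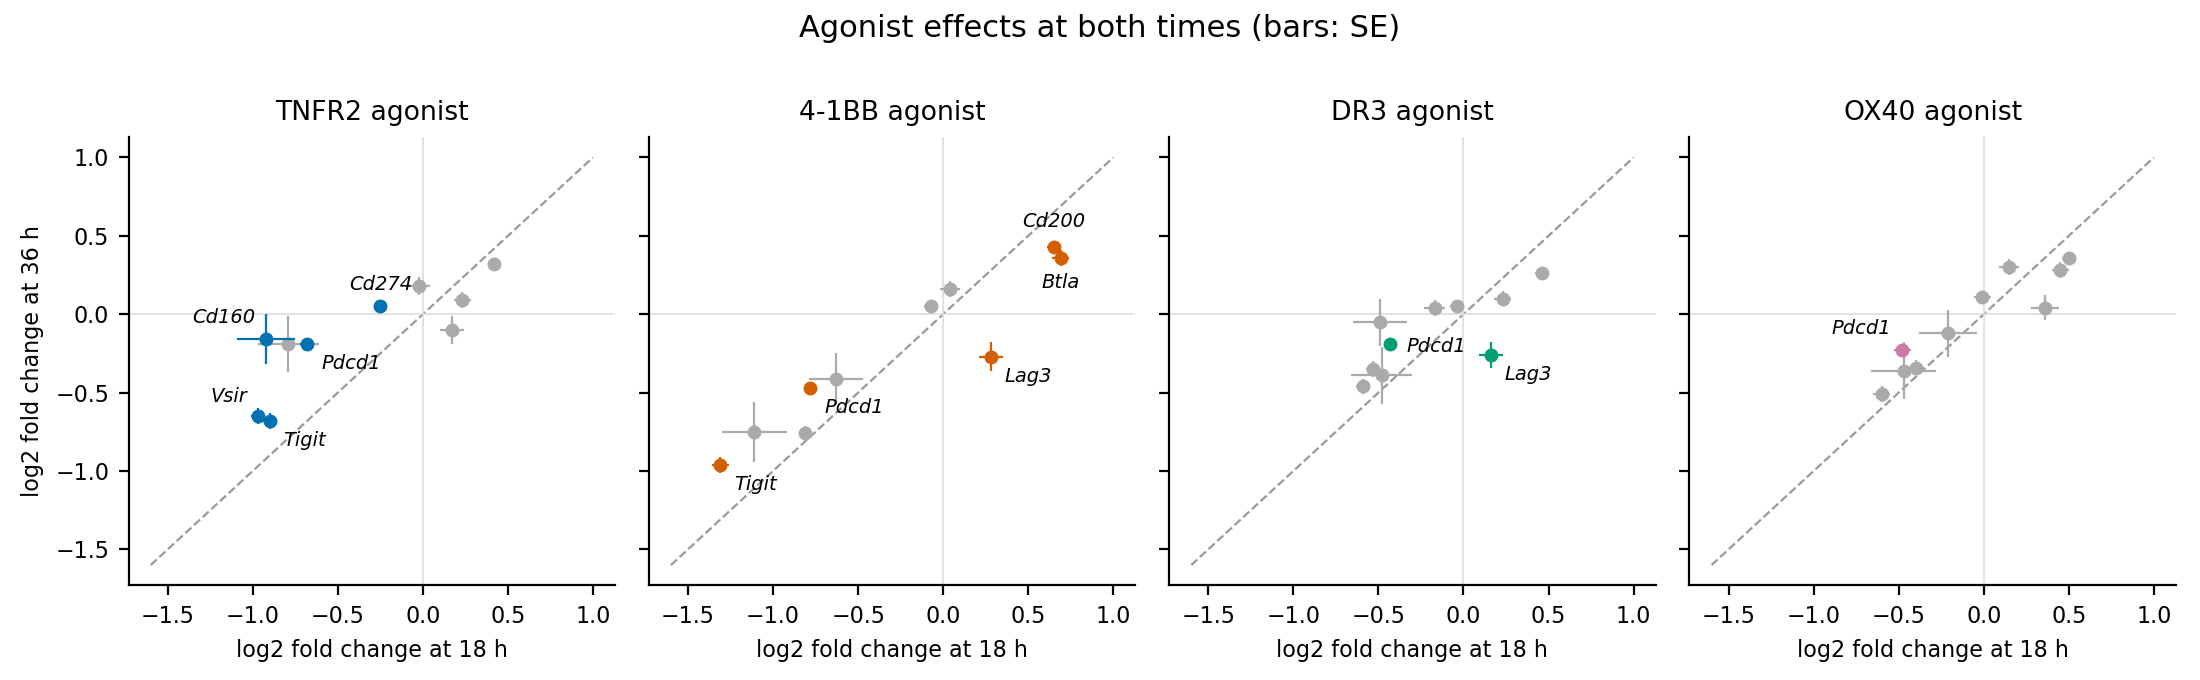
Each panel sets the log2 fold change of an agonist over its control at 36 h (vertical) against that at 18 h (horizontal) for the 10 genes, with SE bars and a dashed line where both are equal. Coloured and named points are the 13 whose difference between the times was called, and Pdcd1 is named in all 4 panels.

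The genes around the set were also counted, from lists chosen by function with earlier results of these data known. The background for every list count below is the share of all genes called in that comparison. No background is given for calls repeated in all 8 comparisons. At 18 h this share was 31.1% with TNFR2 (15.3% lower) and 25.8% with 4-1BB (13.1% lower). With DR3 it was 19.6% (9.94% lower) and with OX40 19% (9.71% lower). At 36 h it was 24.8% (11.9% lower), 22.5% (11.5% lower), 13.4% (6.39% lower) and 13.3% (6.21% lower) in the same agonist order. Of 20 binding partners of the members, 18 were tested. With the 4-1BB agonist at 18 h 3 were higher and 5 lower, with a median log2 fold change of -0.08, beside 0 over all genes. Cd80, which binds PD-L1 as well as CD28 and CTLA-4, was higher in all 8 agonist comparisons and stood at 23.0 ± 0.770 CPM with the 4-1BB agonist against 7.03 ± 0.430 CPM in the controls at 18 h (SD, n = 3 each), a change of 1.71 ± 0.08 (adjusted p = 7.25e-23). Lgals3, the gene of galectin-3, a ligand of LAG-3, was at 0.219 ± 0.0607 CPM with the 4-1BB agonist, against 1.34 ± 0.206 CPM in the controls, a change of -2.57 ± 0.40 (adjusted p = 1.15e-06). Both Lgals3 levels are low, so the size of this change rests on few reads. Counts for the other agonists at 18 h were 4 higher and 7 lower with TNFR2, 3 and 3 with DR3, and 2 and 4 with OX40.

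Of 14 phosphatases, kinases and adaptors of inhibitory receptor signalling, all tested, 9 were lower and 3 higher with the TNFR2, the 4-1BB and the DR3 agonist at 18 h, and 8 were lower and 3 higher with the OX40 agonist. The median log2 fold change with 4-1BB was -0.28, beside 0 over all genes. Ptpn22, a phosphatase that restrains T cell receptor signalling, was lower in all 8 agonist comparisons and stood at 61.2 ± 1.32 CPM with the 4-1BB agonist, against 124 ± 4.81 CPM in the controls at 18 h. Its log2 fold change was -1.02 ± 0.04 (adjusted p = 3.12e-25). Fyn, a kinase of the Src family, changed by -0.37 ± 0.03 (adjusted p = 1.61e-12) and the adaptor Dok2 by -0.54 ± 0.06 (adjusted p = 5.19e-11). At 36 h the counts ran from 8 lower and 3 higher with 4-1BB to 3 lower and 3 higher with OX40.

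Most tested genes of other inhibitory T cell receptors also fell at 18 h. Of 13 listed, 9 were tested, and at 18 h 7 were lower with TNFR2 and with 4-1BB, and 6 with DR3 and with OX40, and none was higher. The median log2 fold change with 4-1BB was -0.54, beside 0 over all genes. Ctla4, which is among the Treg markers as well, stood at 353 ± 8.13 CPM with the 4-1BB agonist against 513 ± 6.72 CPM in the controls, a change of -0.54 ± 0.04 (adjusted p = 8.86e-15). Pecam1, which carries inhibitory tyrosine motifs and is also an endothelial marker, changed by -0.87 ± 0.06 (adjusted p = 5.09e-16), and Cd5 by -0.36 ± 0.03 (adjusted p = 4.07e-13). At 36 h, 5 were lower and 1 higher with 4-1BB, 5 lower with TNFR2, 3 lower with OX40 and 1 lower with DR3.

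Of 19 transcription factors known to control inhibitory receptor genes in T cells, all tested, 7 were higher and 8 lower with the 4-1BB agonist at 18 h. Batf stood at 129 ± 2.41 CPM with this agonist, against 63.0 ± 3.09 CPM in the controls, a change of 1.03 ± 0.05 (adjusted p = 1.28e-23), and it was higher in all 8 agonist comparisons. Prdm1, the gene of Blimp-1, changed by -0.65 ± 0.06 (adjusted p = 2.38e-13) and was lower in all 8. The counts with the other agonists at 18 h were 8 higher and 7 lower with TNFR2, 7 and 6 with DR3, and 7 and 5 with OX40. Marker sums of conventional helper T cells were 268 to 286 CPM with the 4-1BB agonist, against 181 to 185 CPM in the 18 h controls, mainly from Bhlhe40.

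Across the 11 group means, most of which share a culture time with others, some members ran together. The correlation of log2 CPM was 0.93 between Tigit and Vsir, 0.92 between Vsir and Lag3 and 0.86 between Lag3 and Btla, and it was 0.89 between Cd274 and Cd200 and 0.87 between Cd160 and Cd96. Cd200 ran against Cd96 (-0.85) and Cd160 (-0.81). Among 9195 genes with a mean of at least 5 CPM, the genes most like Tigit over the groups were Sgms1 (r = 0.949), Tnfrsf1b, which encodes TNFR2 (0.948), and Fam84b (0.948). Those most like Vsir were Zfp36l1 (0.989), Mier3 (0.987) and Tram2 (0.986), and those most like Pdcd1 were Nek7 (0.968), Rab11fip4 (0.95) and Dpysl2 (0.946). Cd200 was most like Ccnd2, the gene of cyclin D2 (0.995), Nfe2l1 (0.993) and Gabpb1 (0.988), and Btla was most like Tab2 (0.951), Ice1 (0.951) and Mbp (0.948). Havcr2 was most like Prdm1 (0.876), Epcam (0.87) and Cxcr6 (0.859), with lower values than the other members. These correlations describe 11 means and carry no test.

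Over all 11 groups the highest mean exceeded the lowest 5.8-fold for Vsir (resting cells over the 4-1BB agonist at 36 h), 4.04-fold for Tigit (18 h controls over the 4-1BB agonist at 36 h), 3.95-fold for Cd200 (the 4-1BB agonist at 18 h over resting cells) and 1.72-fold for Pdcd1. In the order of Tigit means the neighbours whose libraries overlapped were the OX40 and DR3 agonists at 18 h, the 4-1BB agonist at 18 h with the OX40 agonist at 36 h, and the OX40 and DR3 agonists at 36 h. In that of Vsir they were the DR3 and OX40 agonists at 18 h, the same pair at 36 h, and the TNFR2 and 4-1BB agonists at 36 h. The tables measure RNA, and protein at the cell surface was not measured in them.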

How the data were processed

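Total RNA of 32 libraries of Foxp3/GFP-positive mouse Tregs was extracted with the NucleoSpin RNA XS kit and made into libraries with the SMART-Seq v4 kit, per the labels' protocols. Reads were aligned with STAR 2.5.3a and quantified with RSEM 1.2.28 on mm10, and FastQC and Trimmomatic were also used, per the submitters' processing notes. The annotation and the strand setting of RSEM were not given in the sources used here. Deposited tables of the authors give RSEM expected counts and TPM for 54087 genes, of which 53973 matched a gene of GENCODE M21. A mean of 1.17% of genes per library had a fractional expected count, and the authors' expected counts were rounded to whole numbers. Totals were 11880270 to 38083925 counts per library, and no 2 libraries were identical.

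Here edgeR 4.0.16 (R 4.3.3; filterByExpr, TMM, robust quasi-likelihood fit with 1 mean for each of 11 groups) tested 14313 genes, with Benjamini-Hochberg adjustment over all of them in each comparison. The common biological coefficient of variation was 4%. The deposited TPM values were used, without a test, to compare levels between members, and with limma 3.58.1 on log2(TPM + 1) as an alternative. Other alternatives were DESeq2 1.42.0, size factors in place of TMM, no filter (27847 genes), a minimum mean of 5 CPM (9648 genes), only the groups compared, the share of the ribosomal RNA locus transcript as a covariate, removal of the 6 libraries above 10000 CPM of it, a replicate block, and leaving out each library. The scripts were tested on simulated data. Same-numbered libraries of different groups had deviations correlated between -0.17 and 0.14 over 32 pairs, so no strong shared effect of the number was seen. This does not show whether same-numbered libraries had a common origin.

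The members and lists were chosen with earlier results of these data known. Named genes were all members, up to 3 called genes of a list with the smallest p in the comparison and genes whose products bind a member. Promoters came from the RefSeq table of GRCm38.p6 (9 of 10 members matched, not Lag3). Protein sequences were not used here.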

Additional observations from a re-analysis of the deposited data

Results flagged for a closer look

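For 13 member tests the effect of an agonist over its control differed between 36 h and 18 h by the test of the difference itself (edgeR, adjusted over all genes). Values are the log2 effect at 36 h minus that at 18 h.

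With the TNFR2 agonist the difference was 0.49 for Pdcd1 (adjusted p = 1.06e-07), 0.32 for Vsir (adjusted p = 0.000963), 0.30 for Cd274 (adjusted p = 0.000366), 0.21 for Tigit (adjusted p = 0.0442) and 0.75 for Cd160 (adjusted p = 0.0383). Cd274 was lower than control at 18 h and close to it at 36 h. The values for Tigit and Cd160 were the least steady. That for Tigit was not called in 18 of 21 alternative fits, with values of 0.18 to 0.23, and held among single libraries left out only without TNFR2 replicate 1 of 18 h. That for Cd160 was not called in 11 of 20, with values of 0.63 to 0.74, among them the fits without 18 h control replicate 1 or 3, 36 h control replicate 1, TNFR2 replicate 1 or 3 of 18 h, or TNFR2 replicate 1 or 2 of 36 h. That for Vsir was not called without the libraries high in the ribosomal transcript (0.22) or with limma (0.29).

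With the 4-1BB agonist the difference was 0.35 for Tigit (adjusted p = 0.000629), 0.31 for Pdcd1 (adjusted p = 0.000571), -0.33 for Btla (adjusted p = 0.00182), -0.22 for Cd200 (adjusted p = 0.012) and -0.55 for Lag3 (adjusted p = 0.000769). Lag3 was higher than control at 18 h (0.28) and lower at 36 h (-0.27), a change of side between the times. The Cd200 value was not called without 18 h control replicate 1 or 4-1BB replicate 2 of 36 h (-0.19 each), without the libraries high in the ribosomal transcript (-0.18) or with limma (-0.16), and the Btla value was not called with limma (-0.31).

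With the DR3 agonist the difference was -0.42 for Lag3 (adjusted p = 0.0298), whose value was between -0.41 and -0.37 and not called in 9 of 21 alternative fits (among them those without DR3 replicate 3 of 18 h, DR3 replicate 2 or 3 of 36 h, 18 h control replicate 2 or 3, or 36 h control replicate 1 or 3), and 0.24 for Pdcd1 (adjusted p = 0.0235), not called in 8 of 21. With the OX40 agonist it was 0.25 for Pdcd1 (adjusted p = 0.0158), not called in 5 of 20. No cause was tested for any of these differences.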

How the results depend on the processing

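Of the counts of members called in the 11 comparisons against a control or resting cells, that of 18 h controls over resting cells was 6 in place of 10 with the minimum of 5 CPM, where Cd160 and Havcr2 were not tested and Tigit and Pdcd1 were not called. The 13 differences between times were 6 without the libraries high in the ribosomal transcript and 7 with limma, and the 47 differences between agonists were 31 with limma. Pdcd1 in 36 h controls over resting cells (0.13) reversed to -0.05 with the 5 CPM minimum and -0.02 with limma; the cause was not tested. Limma on TPM also moved the median of all genes to -0.118 and -0.132 in the 18 h and 36 h controls over resting cells.

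Leaving out 1 library gave 9 to 10 members called for 18 h controls over resting cells, 8 to 10 for 36 h controls over resting cells and 6 to 7 for 36 h over 18 h controls. At 18 h the counts were 8 to 8 for TNFR2, 8 to 8 for 4-1BB, 5 to 6 for DR3 and 5 to 6 for OX40, and at 36 h 4 to 5 for TNFR2, 6 to 8 for 4-1BB, 4 to 5 for DR3 and 6 to 6 for OX40. It gave 9 to 14 differences between times, 13 to 16 joint calls and 41 to 48 agonist pairs. The replicate block gave 8 members for DR3 at 18 h (7 without it, Havcr2 being added at -0.48), 12 differences between times and 45 pairs, and changed 4 of 270 calls.

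The setting without the libraries high in the ribosomal transcript left only replicate 3 of the 18 h controls. The part of the lost replicates was not tested. Over all genes, the background counts fell in this setting. At 18 h they were 1876, 1873, 1150 and 1181 called genes, against 4456, 3690, 2806 and 2724 with all libraries, in the order TNFR2, 4-1BB, DR3, OX40. For the differences between times they were 242, 245, 63 and 90, against 958, 626, 331 and 498. With limma they were 1672 for OX40 at 18 h, and at 36 h 2280, 1905, 911 and 1046, against 3551, 3215, 1912 and 1908. The calls of Tigit, Vsir, Pdcd1 and Cd200 against control in the 8 agonist comparisons held in all alternatives, except Cd200 with DR3 at 36 h under limma (0.15). The 2 libraries limit the precision for OX40 at 18 h, and low counts limit Havcr2 and Cd160.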
